A study of Mus musculus with 32 samples.

Results

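The Hox genes of 4 lines of mouse embryonic fibroblasts (MEFs) are described here. Members were taken by name: every gene whose symbol in any of the deposited comparison tables was Hox, a cluster letter from a to d and a number. The rule found 34 genes of the 39017 in the count table: 11 in cluster a on chromosome 6, 9 in cluster b on chromosome 11, 7 in cluster c on chromosome 15 and 7 in cluster d on chromosome 2. The mouse annotation used for coordinates (GENCODE M21) names 39 Hox genes. The rule left out 5 of them, of which Hoxb1, Hoxc12 and Hoxd1 had 2, 13 and 1 reads over all 32 libraries, Hoxc11 had 892 and Hoxd4 was not among the genes counted. A filter on low counts kept 33 of the 34 members for testing and left out Hoxd12. Counts of members below are over all 34.

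RNA of the 4 lines was sequenced after aphidicolin (APH, an inhibitor of the replicative DNA polymerases) at 1 µM or its solvent DMSO, for 4 or 24 h. The lines are labelled wtATM, ATM knock-out, wtATMIN, then ATMIN knock-out. ATM is a DNA damage kinase and ATMIN a protein that interacts with it. Each of the 16 groups of line, treatment and time had 2 replicates, and each line had 8 libraries. All cells were grown in DMEM with serum and antibiotics, and no other allele or agent is named in the labels. The labels name 1 line per genotype and do not say whether the replicates were separate cultures, whether a pair of lines came from littermates, how the cells were immortalised, or what part of the embryo they came from. Line and genotype therefore cannot be told apart, and p-values measure only the spread between these libraries.

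Hox genes encode homeodomain transcription factors. They lie in 4 clusters that arose by duplication, so that genes with the same number in different clusters (paralogs) are closely related. Along a cluster, low numbers are transcribed toward the head and high numbers toward the tail, and in limbs the highest numbers mark the far end. Cultured fibroblasts keep a Hox pattern that reflects the body site they were taken from. Hox proteins bind DNA together with TALE homeodomain partners of the Pbx and Meis families, Polycomb group proteins hold silent clusters in a repressed state, and trithorax proteins such as Kmt2a (MLL) keep transcribed ones active.

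The promoters of 5 members are printed because the lines differed in these genes of cluster d (Hoxd13, Hoxd10 and Hoxd8) and of the head end of cluster a (Hoxa2), and Hoxb8 of cluster b changed with line, time and APH. Each run holds the 250 bases before the RefSeq start on the GRCm38.p6 build (the mm10 genome), 5′ to 3′ on the gene's strand, and no annotated exon lies within it. Capitals mark matches to 3 motifs searched on both strands: TATAAA (a core promoter element), TGATNNAT (a Pbx and Hox composite site) and TTTATNG (a site of posterior Hox and Cdx proteins). Matches of the first and the last motif can overlap. The windows lie on chromosome 2 at 74667975 to 74668224 (plus strand, Hoxd13), 74691641 to 74691890 (plus, Hoxd10) and 74704365 to 74704614 (plus, Hoxd8). The Hoxa2 window lies on chromosome 6 at 52164832 to 52165081 (minus strand), and that of Hoxb8 on chromosome 11 at 96281655 to 96281904 (plus strand).
Hoxd13: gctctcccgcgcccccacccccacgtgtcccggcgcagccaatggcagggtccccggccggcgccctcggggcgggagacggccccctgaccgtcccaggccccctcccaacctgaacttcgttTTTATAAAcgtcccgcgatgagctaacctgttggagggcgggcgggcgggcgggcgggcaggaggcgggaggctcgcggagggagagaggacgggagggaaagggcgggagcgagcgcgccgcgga
Hoxd10: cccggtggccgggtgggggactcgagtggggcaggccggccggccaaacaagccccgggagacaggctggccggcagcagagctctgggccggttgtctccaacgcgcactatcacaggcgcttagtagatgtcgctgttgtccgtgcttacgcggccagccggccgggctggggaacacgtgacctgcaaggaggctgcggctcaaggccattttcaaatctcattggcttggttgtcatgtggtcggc
Hoxd8: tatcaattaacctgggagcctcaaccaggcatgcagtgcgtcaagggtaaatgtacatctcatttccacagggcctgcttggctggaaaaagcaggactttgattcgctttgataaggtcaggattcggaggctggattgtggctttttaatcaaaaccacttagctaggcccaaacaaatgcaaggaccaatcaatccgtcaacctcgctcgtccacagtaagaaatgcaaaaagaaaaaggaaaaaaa
Hoxa2: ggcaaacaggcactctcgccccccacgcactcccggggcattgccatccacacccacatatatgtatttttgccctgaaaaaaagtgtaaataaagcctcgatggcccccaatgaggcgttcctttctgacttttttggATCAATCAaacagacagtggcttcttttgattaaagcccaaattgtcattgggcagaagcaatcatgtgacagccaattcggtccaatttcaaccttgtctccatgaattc
Hoxb8: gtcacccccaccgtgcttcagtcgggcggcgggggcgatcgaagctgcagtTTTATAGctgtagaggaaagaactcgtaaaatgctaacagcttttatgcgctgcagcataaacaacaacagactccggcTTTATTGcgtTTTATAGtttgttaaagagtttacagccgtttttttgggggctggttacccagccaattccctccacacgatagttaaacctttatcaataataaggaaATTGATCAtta

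The Hoxd13 window was 74.4% G and C with 31 CpG dinucleotides and held TATAAA on both strands at overlapping positions. The Hoxd10 window was 65.6% G and C with 20 CpG and held none of the 3 motifs, and that of Hoxd8, 44.4% with 6 CpG, held none either. Hoxa2 (46.4%, 6 CpG) had 1 TGATNNAT match. Hoxb8 (44.4%, 12 CpG) had 2 TATAAA, 1 TGATNNAT and 3 TTTATNG matches. Of the 34 members, 19 were in the RefSeq promoter table, with 21 promoters, of which 3 held TATAAA, 3 TGATNNAT and 1 TTTATNG. Over all 32536 promoters of the table, the shares were 12.3%, 7.66% and 9.74%. These matches describe the letters of the windows only.

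Library totals ran from 9321329 to 21020662 counts (median 16174639), and the shallowest was replicate 2 of ATM knock-out with APH for 4 h, which also held reads on 455 olfactory and vomeronasal receptor genes. Of the targeted genes, Atm had 43.1, 52.2 and 65.1 CPM (counts scaled to library size; lowest, median and highest of 8 libraries) in wtATM and 17.8, 33.9 and 45.5 in the line labelled ATM knock-out (log2 difference -0.71 ± 0.08, adjusted p = 1.73e-08 by edgeR). The 2 ranges overlap, and Atm reads remained in each of the 8 libraries, so that this gene's RNA level alone does not bear out the label. The name ATM knock-out is used below as the label of the line. Atmin had 20.4, 26.6 and 32.9 CPM in wtATMIN and 3.77, 5.02 and 6.77 in ATMIN knock-out. Of 16 fibroblast markers, 13 or 14 had a median of at least 1 CPM in each line, and their summed CPM was between 7770 and 33900 in every library. Fibroblast markers were thus transcribed in all 4 lines, which does not by itself settle the cell type. Of 10 blood markers, 6 (among them Ptprc, Adgre1, Tyrobp and Spi1) had a median of 0 in each line and 4 a median of at least 1 CPM, with sums of 20.3 to 35.9 CPM. Summed levels of 8 endothelial markers were 1.98 to 22 CPM and those of 8 neural markers 98.1 to 504 CPM. Those of 6 chondrocyte markers were 147 to 315 CPM in wtATMIN and 30.3 to 241 in the other lines. Those of 6 adipocyte markers were 2.37 to 5.29 CPM in wtATM, 35.9 to 45.7 in ATM knock-out, 13.4 to 39.7 for wtATMIN and 65.2 to 123 in ATMIN knock-out. Summed levels of 10 epithelial and 8 muscle markers reached 98.9 to 243 and 63.7 to 117 CPM in wtATM, against at most 16.6 and 11.3 in the other lines. Xist, the RNA of the inactive X chromosome, had 513, 794 and 1260 CPM in ATMIN knock-out, while the Y-linked genes Ddx3y, Eif2s3y, Kdm5d and Uty were transcribed in ATM knock-out and wtATMIN. Each pair of lines thus also differed in sex-linked genes. These differences move with the line, and their part in the Hox results was not tested.

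Hox transcripts made up a small share of each library. Their summed level was lowest in wtATM, at 178, 207 and 214 CPM (lowest, median and highest of 8 libraries). It was 284, 322 and 334 CPM in ATM knock-out, 280, 329 and 400 in the wtATMIN line and 254, 339 and 399 in ATMIN knock-out. The range of wtATM lay below those of the other 3 lines, which overlapped one another. In bulk libraries, fewer cells with a transcript and less of it per cell cannot be told apart. Of the 34 members, 31 had a mean of at least 1 CPM in at least 1 line, all but Hoxa13, Hoxc13 and Hoxd12. In all 4 lines 16 did, among them Hoxa7, Hoxa9, Hoxa10, the 8 cluster b genes from Hoxb2 to Hoxb9, Hoxc4 and Hoxc6.

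**Figure D1:**
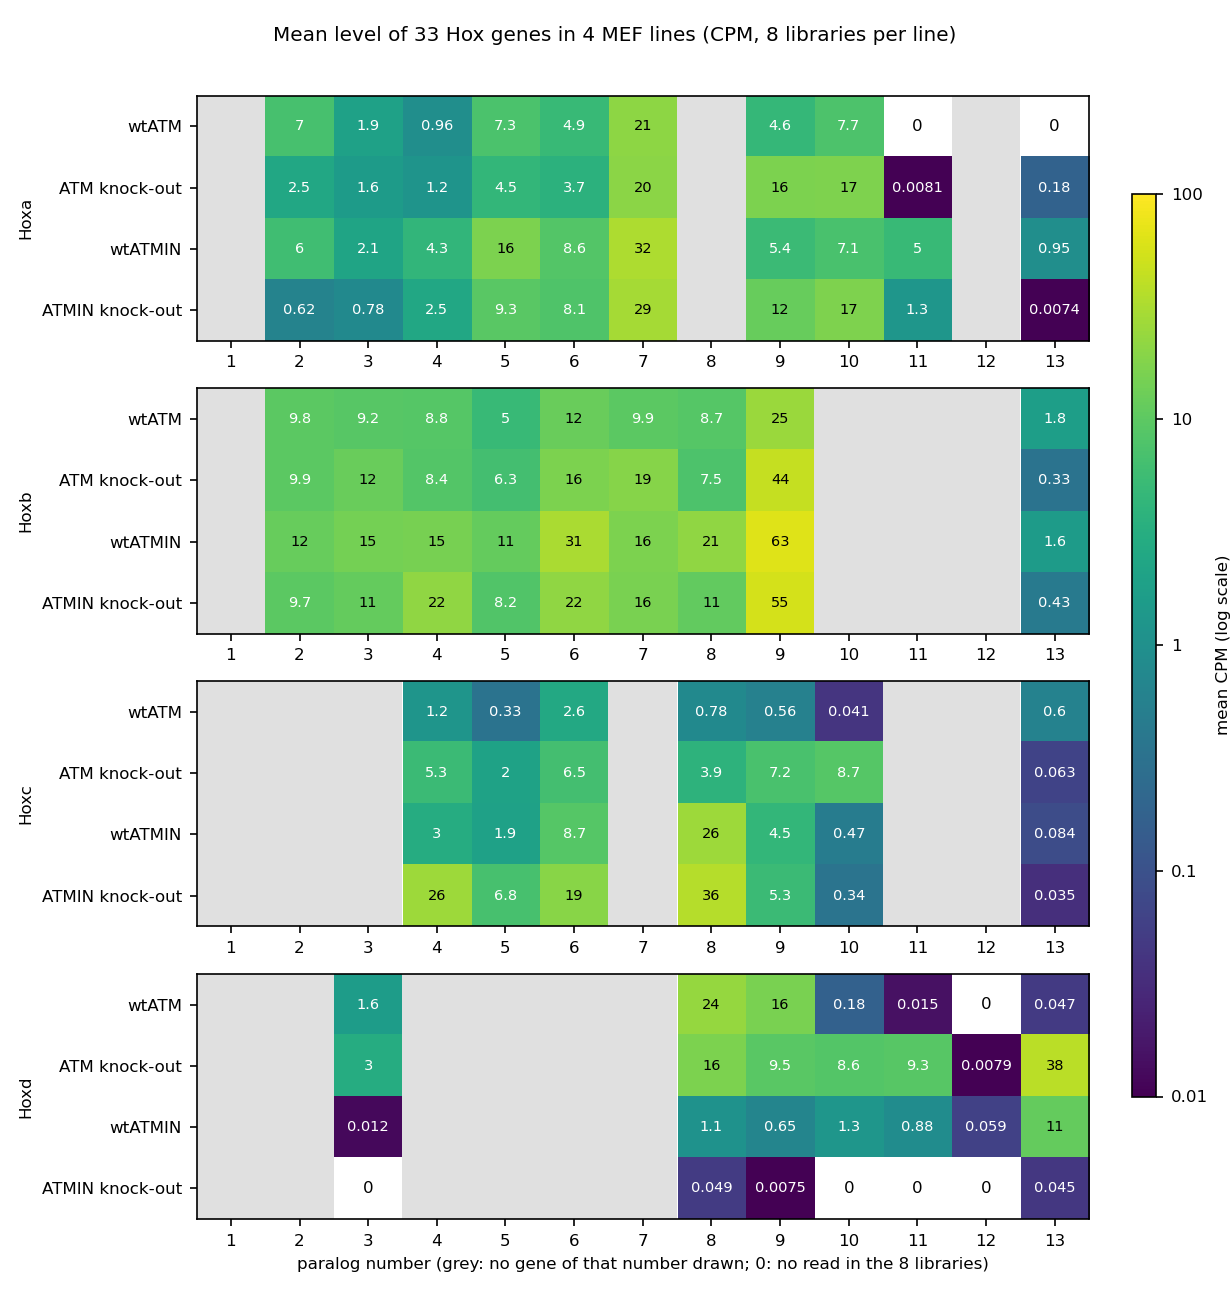
Mean CPM over 8 libraries of 33 Hox genes, by cluster (panels, letters a to d), line (rows) and paralog number (columns). The colour scale is logarithmic and 0 marks genes with no read in a line. Cluster b was filled from 2 to 9 in every line. The d panel ran from a row in ATM knock-out that was full but for Hoxd12 (1 read) to a nearly empty one in ATMIN knock-out.

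Clusters a and b were transcribed in every line, whereas clusters c and d differed in how much of the Hox CPM they gave. Sums of CPM are not scaled to gene length, so the order of clusters in CPM is not an order of transcript number. Cluster b had the highest CPM sum in every line, with medians of 91.8, 124, 179 and 153 CPM in wtATM, ATM knock-out, wtATMIN, then ATMIN knock-out. Cluster a had medians of 63.8, 68.4, 87.2 and 84.2 CPM and came after cluster b in the wild-type lines, after b and d in ATM knock-out and after b and c in ATMIN knock-out. Cluster c ran from 6.1 CPM in wtATM over 32.9 and 40.1 to 88.9 CPM in ATMIN knock-out. Cluster d went another way, with 40.2 CPM in wtATM, 81.1 in ATM knock-out, 13.4 in wtATMIN and 0.0899 in ATMIN knock-out. As a median share of Hox CPM, cluster d gave 19.5%, 27.1%, 4.31% and 0.0317% in that order of lines, and cluster c 3.14%, 10.1%, 12.2% and 26%.

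**Figure D2:**
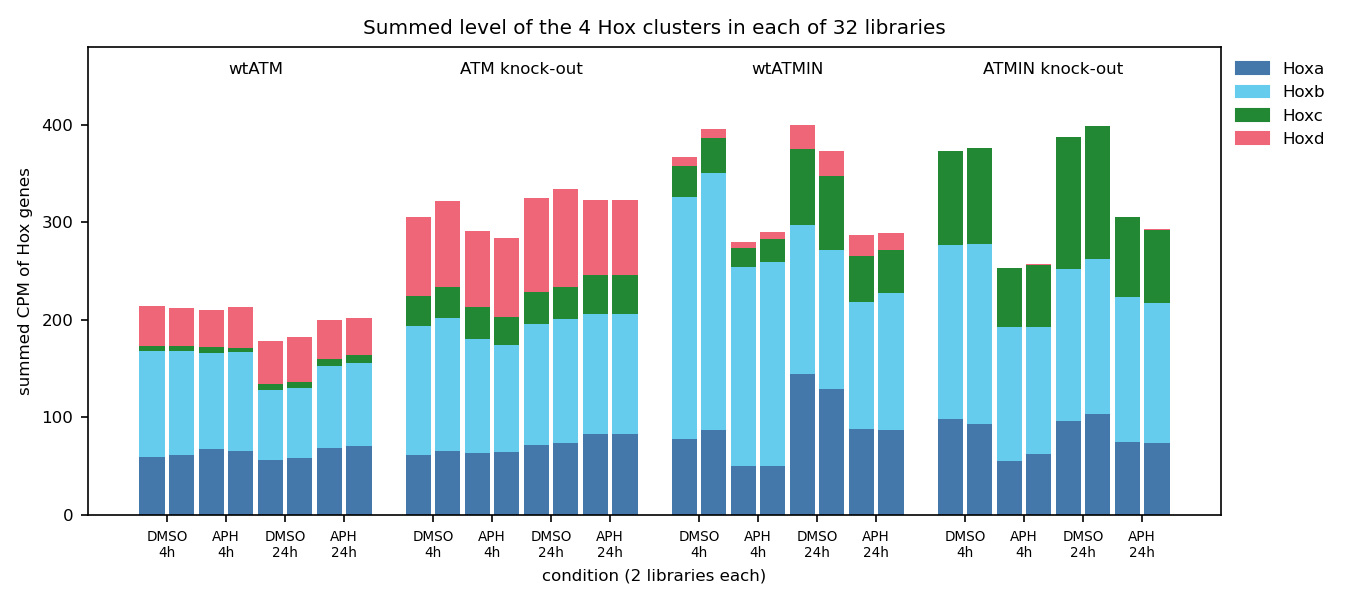
Summed CPM of each Hox cluster (stacked bars, clusters a to d) in each of the 32 libraries, ordered by line and condition. Cluster d stood out in ATM knock-out with a median of 81.1 CPM and was all but missing in ATMIN knock-out, and the wtATMIN and ATMIN knock-out bars were lower with APH than with DMSO at both times.

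The lines also differed in how far toward the tail end each cluster was transcribed. The highest number with a mean of at least 1 CPM was Hoxa10 in wtATM and ATM knock-out and Hoxa11 in wtATMIN and ATMIN knock-out. In cluster b it was Hoxb13 in both wild-type lines and Hoxb9 in both knock-out lines. In cluster c it was Hoxc6 in wtATM, Hoxc10 in ATM knock-out and Hoxc9 in wtATMIN and ATMIN knock-out. In cluster d it was Hoxd9 in wtATM and Hoxd13 in ATM knock-out and wtATMIN, and no member reached 1 CPM in ATMIN knock-out. These limits hold for the members only. Hoxc11, which the naming rule left out, exceeded 1 CPM in each library of ATM knock-out. Paralogs 9 to 13 gave a median of 50.6% of Hox CPM in ATM knock-out (48.4 to 54.9% over 8 libraries), against 27.3% in wtATM (25.2 to 31.6%), 31% in wtATMIN (22.4 to 39.6%) and 28.7% in ATMIN knock-out (22.3 to 32.8%). No library of the other 3 lines reached the range of ATM knock-out. Paralogs 1 to 4 gave 24.7%, 14.2%, 17.3% and 22.1% in wtATM, ATM knock-out, wtATMIN, then ATMIN knock-out, and paralogs 5 to 8 gave 48.7%, 33.8%, 51.4% and 48.4%. Paralogs of number 13 alone summed to medians of 2.38, 37.4, 12.3 and 0.39 CPM.

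Levels of different genes can be compared only per length, as CPM per kilobase (RPKM) with the deposited gene lengths, which run from 617 bases for Hoxc5 to 4151 for Hoxb4. Hoxb9 led cluster b in each line, with medians of 9.15, 16.4, 25.1 and 20.7 RPKM in wtATM, ATM knock-out, wtATMIN, then ATMIN knock-out. Hoxc6 led cluster c in each line, with 2.83, 6.85, 9.83 and 21.9 RPKM, although Hoxc8 was nearly level in wtATMIN at 9.7 RPKM. In cluster a, Hoxa7 led in wtATM and wtATMIN (10.7 and 14.7 RPKM), and Hoxa9 in ATM knock-out and ATMIN knock-out (22.3 and 18.4 RPKM). The leading cluster d gene changed with the line: Hoxd8 in wtATM (8.25 RPKM), Hoxd11 in ATM knock-out (15 RPKM, with Hoxd13 at 14.8) and Hoxd13 in wtATMIN (4.13 RPKM). The lengths given for Hoxc5, Hoxd11, Hoxa9, Hoxa3 and Hoxc6 are under 900 bases, well below those of most members, and their values per kilobase rest on that.

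In cluster d, the same gene was abundant in one line and nearly without reads in another. Hoxd13 (ENSMUSG00000001819, chromosome 2, 74668310 to 74671599, plus strand), which acts in digits and the genital tubercle, had 0, 0.0599 and 0.114 CPM in wtATM (lowest, median and highest of 8) and 32.1, 36.8 and 45.6 in ATM knock-out. It had 3.71, 10.3 and 19.8 CPM in wtATMIN and 0, 0.0556 and 0.0749 in ATMIN knock-out. Total reads over the 8 libraries were 6, 4463, 1634 and 6. The ranges of wtATM and ATMIN knock-out overlapped near 0, and those of the other 2 lines lay apart from them and from each other. Hoxd11 and Hoxd10, which pattern the forearm and the lumbar region, followed the same order. Hoxd11 had 2, 1100, 126 and 0 reads in wtATM, ATM knock-out, wtATMIN, then ATMIN knock-out, and Hoxd10 had 23, 1016, 185 and 0. In CPM, Hoxd11 had medians of 9.4 in ATM knock-out (6.68 to 11.6) and 0.701 in wtATMIN (0.45 to 1.52), and Hoxd10 had 8.76 (6.34 to 10.0) and 1.18 (0.296 to 2.62).

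The lower-numbered genes of the same cluster had another order of lines. Hoxd8, in the middle of the cluster, had 19.4, 21.7 and 30.7 CPM in wtATM, 12.7, 15.9 and 20.7 in ATM knock-out and 0.533, 0.866 and 2.07 in wtATMIN, and 7 reads in all of ATMIN knock-out. Hoxd9 had 11.9, 15.1 and 21.2 CPM in wtATM, 6.33, 9.1 and 13.7 in ATM knock-out and 0.322, 0.686 and 0.947 in wtATMIN, and 1 read in ATMIN knock-out. Both were highest in wtATM, with ranges that overlapped those of ATM knock-out and not those of the other pair. Hoxd3 had 207 reads in wtATM, 353 in ATM knock-out, 2 in wtATMIN and 0 in ATMIN knock-out, with 0.891, 1.38 and 2.74 CPM in wtATM and 2.05, 2.77 and 4.62 in ATM knock-out. Within this cluster, wtATM thus had Hoxd3, Hoxd8 and Hoxd9 without Hoxd11 or Hoxd13, while in wtATMIN only Hoxd13 exceeded 2 CPM on average. Hoxd12 had 0, 1, 9 and 0 reads. A total of 0 reads over 8 libraries allows up to 3, and this covers counting error only. The Hoxd3 gene model overlaps Hoxd4 on the same strand, so its reads may include those of Hoxd4.

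**Figure D3:**
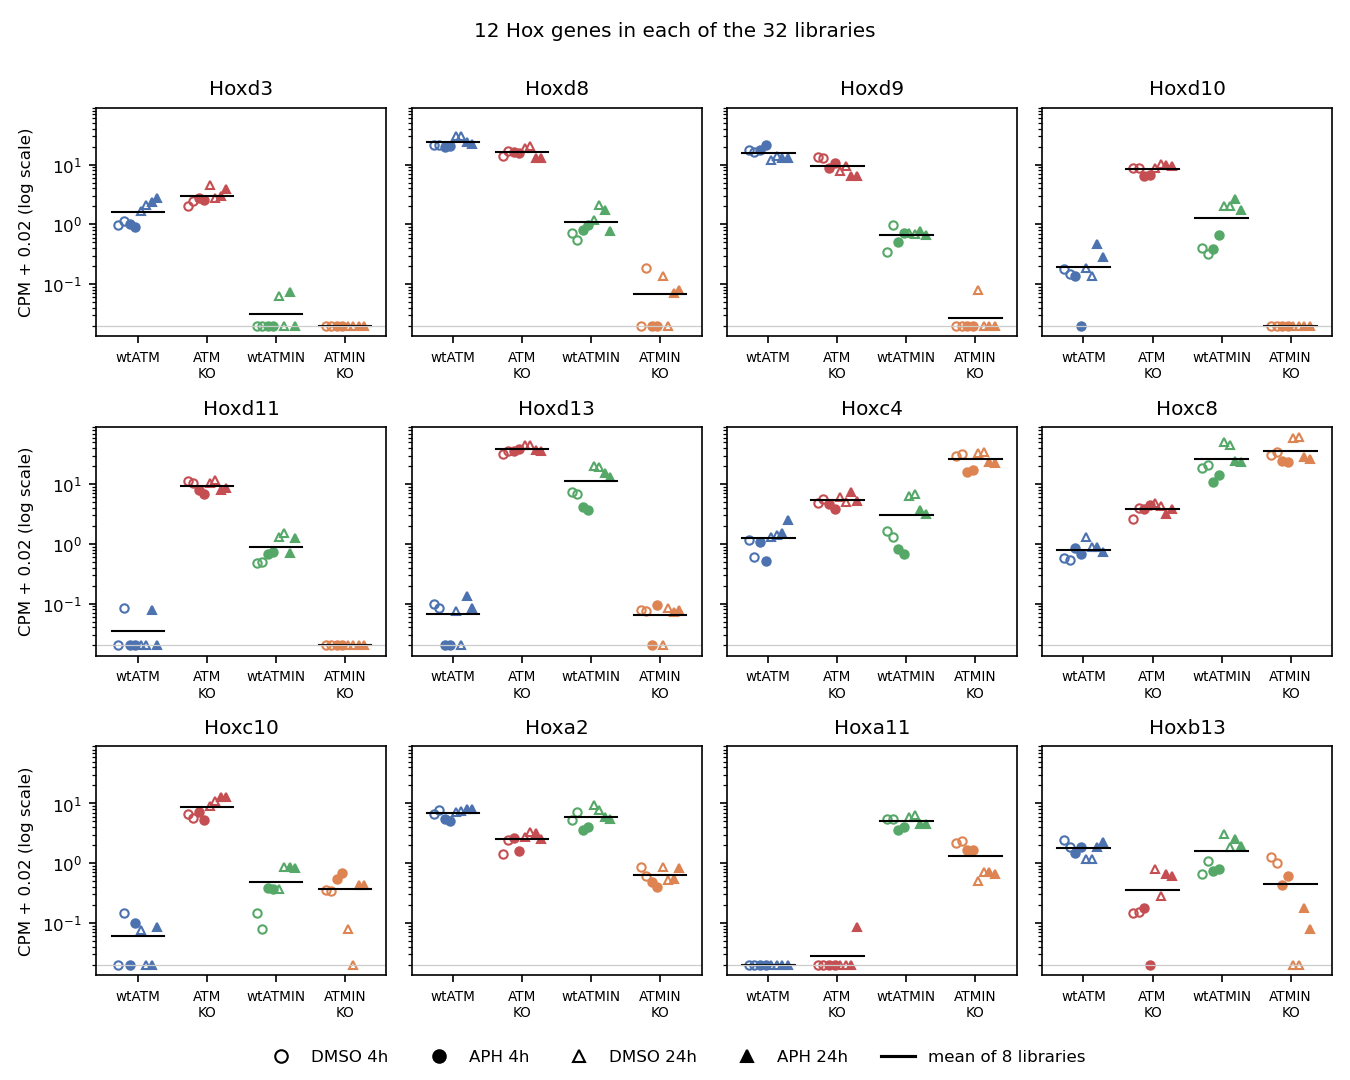
CPM plus 0.02 on a log axis for 12 Hox genes in all 32 libraries, by line. Open symbols are DMSO and filled ones APH, circles are 4 h and triangles 24 h, and the black line is the mean of 8 libraries. For Hoxd13, the 8 ATM knock-out libraries lie between 32.1 and 45.6 CPM and the 8 wtATMIN libraries between 3.71 and 19.8, while those of wtATM and ATMIN knock-out lie near 0.

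Cluster c ran from low in wtATM to high in ATMIN knock-out for its lower numbers. Hoxc4, which marks cervical and upper thoracic levels, had 0.486, 1.19 and 2.47 CPM in wtATM, 3.79, 5.19 and 7.29 in ATM knock-out, 0.648, 2.37 and 6.81 in the wtATMIN line and 16.2, 26.2 and 33.8 in ATMIN knock-out. Hoxc8, a thoracic gene, had 0.519, 0.771 and 1.27 CPM in wtATM, 2.61, 3.92 and 4.8 in ATM knock-out, 10.6, 22.3 and 49.8 in the wtATMIN line and 23.7, 29.8 and 60.4 in ATMIN knock-out. ATMIN knock-out was highest for both, although its Hoxc8 range overlapped that of wtATMIN. Hoxc6 had medians of 2.55, 6.16, 8.84 and 19.7 CPM in the 4 lines (range over all libraries 1.62 to 26.6) and Hoxc5 0.251, 2.07, 2.12 and 6.6 (0.165 to 9.22). The Hoxc5 gene model spans Hoxc6 to Hoxc10 on the same strand, so its reads depend on how shared stretches were counted.

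Toward the tail end of cluster c the order changed again. Hoxc9 had 0.275, 0.502 and 0.943 CPM in wtATM, 5.22, 7.58 and 8.41 in ATM knock-out, 2.89, 4.02 and 7.25 in the wtATMIN line and 4.07, 5.16 and 6.82 in ATMIN knock-out. Hoxc10 (ENSMUSG00000022484, chromosome 15, 102966796 to 102971893, plus strand), a gene of lumbar and hindlimb level, had 5.34, 8.03 and 12.7 CPM in ATM knock-out. It had 5 reads in all of wtATM, 67 in wtATMIN and 46 in ATMIN knock-out, and no library of these lines exceeded 0.855 CPM. Hoxc13, known from hair and nail, had 76, 8, 12 and 5 reads and was highest in wtATM, at 0.165, 0.564 and 1.14 CPM.

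Cluster a combined genes that differed at both of its ends. Hoxa2, which specifies hyoid arch identity, had 5.1, 7.21 and 8.01 CPM in wtATM, 1.43, 2.58 and 3.28 in ATM knock-out, 3.64, 5.68 and 9.27 in the wtATMIN line and 0.374, 0.562 and 0.85 in ATMIN knock-out. Both knock-out lines lay below their wild-type line for Hoxa2 without overlap. Hoxa3, a pharyngeal arch and thymus gene, had medians of 2.17, 1.55, 2.04 and 0.672 CPM, and its gene model spans Hoxa4 to Hoxa6. Hoxa4 had medians of 1.02, 1.19, 4.08 and 2.49 CPM, Hoxa5 (lung and rib cage) 7.29, 4.33, 15.9 and 9.09, and Hoxa6 4.72, 3.51, 7.78 and 8.49. These 3 genes were highest in the wtATMIN and ATMIN knock-out pair. Hoxa7, the gene with the most CPM in its cluster, had 21.9, 20.6, 29.9 and 29.8, with wide ranges of 14.1 to 60.6 in wtATMIN and 16.7 to 40.8 in ATMIN knock-out.

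The tail end of cluster a split between pairs of lines and between wild type and knock-out. Hoxa9, known for its role in blood progenitors and leukemia, had 3.58, 4.55 and 6.24 CPM in wtATM, 13.2, 15.2 and 23.7 in ATM knock-out, 2.53, 5.47 and 7.99 in the wtATMIN line and 9.14, 12.5 and 14.8 in ATMIN knock-out. Hoxa10, which acts in the uterus and lumbar spine, had 5.69, 8.22 and 8.53, then 14.1, 16.7 and 18.5, then 4.37, 7.59 and 9.66, and last 12.1, 17.1 and 20.6 CPM in the same order of lines. Both knock-out lines lay above both wild-type lines for these 2 genes, with no overlap. Hoxa11, needed for the forearm and the uterus, had 0 reads in wtATM and 1 in ATM knock-out, and 3.58, 4.97 and 6.45 CPM in wtATMIN and 0.478, 1.17 and 2.29 in ATMIN knock-out. Hoxa13, which acts in digits and hindgut, had 0, 22, 140 and 1 reads, and reached 2.19 CPM in 1 wtATMIN library.

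Cluster b was transcribed in all 4 lines from Hoxb2 to Hoxb9. Hoxb9 had 21.1, 23.6 and 32.2 CPM in wtATM, 38.5, 42.2 and 54.7 in ATM knock-out, 29.3, 64.6 and 96.9 in the wtATMIN line and 47.4, 53.2 and 63.8 in ATMIN knock-out. The other genes from Hoxb2 to Hoxb8 had line medians between 5.12 CPM (Hoxb5 in wtATM) and 29.4 (Hoxb6 in wtATMIN). The median of Hoxb4 was highest in ATMIN knock-out, at 22.3 CPM against 8.61, 8.15 and 15.3. Those of Hoxb2 (10.1, 7.99, 11 and 8.74), Hoxb3 (9.19, 11, 13.2 and 11.1), Hoxb5 (5.12, 6.39, 11.5 and 8.58), Hoxb6 (12.9, 15.7, 29.4 and 22.9) and Hoxb8 (8.92, 6.29, 18.7 and 10.2) were highest in wtATMIN, and that of Hoxb7 (9.91, 18.7, 16.3 and 15.2) in ATM knock-out. Hoxb13, a gene of the tail end and the prostate that lies apart from the rest of the cluster, had 1.16, 1.87 and 2.41 CPM in wtATM, 0, 0.208 and 0.78 in ATM knock-out, 0.643, 1.44 and 3.03 in the wtATMIN line and 0, 0.285 and 1.25 in ATMIN knock-out.

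The ATM knock-out line was compared with wtATM over the mean of the 4 conditions, by the quasi-likelihood test of edgeR, adjusted by Benjamini-Hochberg over 18484 genes, with a threshold of 0.05. In the ATM knock-out line, Hoxc10, Hoxd10, Hoxd11 and Hoxd13 of the tail ends of clusters c and d were higher, and the head-end gene Hoxa2 was lower. Other members went against that order: the tail-end genes Hoxb13 and Hoxc13 were lower, and the head-end genes Hoxb3 and Hoxd3 higher. Of 34 members, 27 passed the test, 18 higher and 9 lower. Of all genes tested 74.2% passed (37.2% higher, 37% lower), so that a difference between these lines was the rule in either set. By cluster, 3 were higher and 4 lower in a, 5 and 2 in b, 6 and 1 in c, and 4 and 2 in d. The median log2 difference of the tested members was 0.42, beside 0.01 for all genes. A difference past 2 on the log2 scale was called for 11 members and 13.2% of all genes. The 8 libraries of each line did not overlap for 14 members that were higher and 4 that were lower, beside 12.7% and 13.3% of genes.

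The largest differences were in Hoxd13 and Hoxd11. Summed over 8 libraries each, Hoxd13 reads per unit of depth were 805-fold higher in ATM knock-out (exact 95% counting interval 370 to 2190) and those of Hoxd11 595-fold higher (164 to 4920). The intervals cover counting error only. Hoxc10 was higher by 7.50 ± 0.24 (log2 difference ± SE, adjusted p = 1.92e-25 by edgeR) and Hoxd10 by 5.74 ± 0.18 (adjusted p = 6.9e-24). Each SE is the log2 difference divided by the square root of the F statistic, which is too small where a line had few reads. Here wtATM had 5 Hoxc10 reads and 23 Hoxd10 reads. Without 1 library the differences ran from 7.21 to 8.33 and from 5.55 to 6.55. Hoxa13 was at least 7.94-fold higher against the limit of 3 reads. Of the middle of cluster c, Hoxc9 (3.67 ± 0.14), Hoxc5 (2.66 ± 0.22), Hoxc8 (2.31 ± 0.14) and Hoxc4 (2.19 ± 0.13) followed, with Hoxa9 (1.82 ± 0.08), Hoxc6 (1.27 ± 0.11) and Hoxa10 (1.12 ± 0.07). In the other direction, Hoxc13 was 8.78-fold lower (4.24 to 21.1, counting interval), and the log2 differences were -2.72 ± 0.27 for Hoxb13, -1.49 ± 0.11 for Hoxa2, -0.74 ± 0.08 for Hoxd9, -0.71 ± 0.08 for Hoxa5 and -0.56 ± 0.07 for Hoxd8. Cluster d was thus higher at Hoxd3, Hoxd10, Hoxd11 and Hoxd13, and lower at Hoxd8 and Hoxd9. In each of the 4 conditions taken alone, 13 members were called higher and 6 lower. Hoxa7 and Hoxb8 were called both ways in different conditions, and the called mean difference of Hoxb8, -0.19 ± 0.08, was 0.77 at 24 h with APH.

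The ATMIN knock-out line was compared with wtATMIN in the same way. Here Hoxa11, Hoxa13 and the 5 called genes of cluster d were lower in the knock-out line, while Hoxa9, Hoxa10 and 5 of the 7 genes of cluster c were higher. Of 34 members 25 passed, 8 higher and 17 lower, beside 65.4% of all genes tested (31.5% higher, 34% lower). By cluster, 2 were higher and 6 lower in a, 1 and 6 in b, 5 and 0 in c, and 0 and 5 in d. The counts of 0 are those of the edgeR test. Its unadjusted p below 0.05 and DESeq2 both gave 8 higher and 17 lower members in all. The median log2 difference was -0.53, beside -0.01 for all genes. A difference past 2 on the log2 scale was called for 10 members and 6.64% of all genes. Ranges did not overlap for 4 higher and 8 lower members, beside 5.79% and 8.67% of genes.

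Hoxd13 differed most among genes with reads in every group, by -7.55 ± 0.18 on the log2 scale (adjusted p = 2.39e-28 by edgeR). With 6 Hoxd13 reads in the knock-out line this SE is too small, and the difference ran from -8.13 to -7.26 without 1 library. With 0 reads in the knock-out line, Hoxd10 was at least 59.1-fold lower and Hoxd11 at least 40.3-fold lower against the limit of 3 reads over its 8 libraries. Ratios of summed reads per unit of depth were 134-fold lower for Hoxa13 (23.7 to 5340), 89.2-fold for Hoxd9 (15.6 to 3560), 21.2-fold for Hoxd8 (10.1 to 53.7) and 3.75-fold for Hoxb13 (2.81 to 5.08). Hoxb13 was not lower in every condition: at 4 h in DMSO it had 1.25 and 0.981 CPM in the knock-out line and 0.643 and 1.07 in wtATMIN, and at 24 h in DMSO 0 reads and 3.03 and 1.82 CPM. Hoxa2 differed by -3.23 ± 0.15, Hoxa11 by -2.15 ± 0.13 and Hoxa3 by -1.48 ± 0.18. The genes that were higher were Hoxc4 (3.51 ± 0.09), Hoxc5 (1.85 ± 0.12), Hoxa10 (1.29 ± 0.07), Hoxa9 (1.21 ± 0.08), Hoxc6 (1.20 ± 0.08), Hoxc8 (0.55 ± 0.05), Hoxb4 (0.53 ± 0.06) and Hoxc9 (0.29 ± 0.09). Hoxc9 was not higher in every condition, with -0.10 at 24 h in DMSO. In each of the 4 conditions alone, 5 members were called higher and 11 lower, and Hoxa7 and Hoxb9 were called both ways.

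Some members differed alike in both pairs of lines, which share no library, and others in opposite directions. Hoxa9, Hoxa10, Hoxc4, Hoxc5, Hoxc6, Hoxc8 and Hoxc9 were higher in both knock-out lines, and Hoxa2, Hoxa5, Hoxb8, Hoxb13, Hoxd8 and Hoxd9 lower, in the mean of the 4 conditions. Single conditions turned for 3 of them: Hoxb8 in the ATM pair at 24 h (0.28 in DMSO and 0.77 with APH, and 0.13 in the mean without the groups with APH for 4 h), Hoxb13 in the ATMIN pair at 4 h in DMSO (0.37) and Hoxc9 in the ATMIN pair at 24 h in DMSO (-0.10). Without 1 library the mean difference of Hoxb8 in the ATM pair ran from -0.24 to -0.17, and its call was not kept in every such fit. Hoxa13, Hoxd10, Hoxd11 and Hoxd13 were higher in ATM knock-out than in wtATM and lower in ATMIN knock-out than in wtATMIN, as were Hoxb3, Hoxb5 and Hoxb6 by smaller amounts. Of all genes tested, 74.2% were called in the ATM pair and 65.4% in the ATMIN pair. The share of all genes called alike, or in opposite directions, in both pairs was not computed. The overlap among Hox genes therefore cannot be set apart from that of other genes. With 1 line per genotype, these patterns belong to the lines.

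The wild-type lines differed from each other as well. Of 34 members 29 passed, 23 higher and 6 lower in wtATMIN than in wtATM, beside 76% of all genes (38.2% higher, 37.7% lower). By cluster, 6 were higher and 2 lower in a, 8 and 0 in b (with 6 lower over all clusters at unadjusted p below 0.05 and 5 by DESeq2), 6 and 1 in c, and 3 and 3 in d. The median log2 difference was 0.93, beside 0.00 for all genes, and 15 members were called with a difference past 2, beside 12.5%. Ranges did not overlap for 13 higher and 4 lower members, beside 13.7% and 11.4% of genes. Hoxd13 reads per unit of depth were 243-fold higher in wtATMIN (111 to 663), those of Hoxd11 56.2-fold (15.2 to 469), and Hoxa11 and Hoxa13 were at least 209-fold and 41.6-fold higher. Hoxc8 was higher by 4.89 ± 0.10 on the log2 scale (adjusted p = 1.72e-31 by edgeR), Hoxc10 by 2.98 ± 0.56, Hoxc9 by 2.95 ± 0.15, Hoxd10 by 2.57 ± 0.30, Hoxc5 by 2.51 ± 0.22 and Hoxa4 by 2.06 ± 0.15. In the other direction, Hoxd3 was 116-fold lower (31.7 to 964) and Hoxc13 7.1-fold lower (3.84 to 14.3), and the log2 differences were -4.52 ± 0.12 for Hoxd9, -4.51 ± 0.11 for Hoxd8 and -0.25 ± 0.09 for Hoxa2. The call for Hoxa2 was lost when library 1 of wtATMIN with DMSO for 4 h was left out (-0.20). This comparison shares the wtATM and wtATMIN libraries with the 2 knock-out comparisons.

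Genes around the clusters and in the Hox pathway were read from the same fits. Of 11 TALE partners of Hox proteins, 4 were higher and 5 lower in ATM knock-out than in wtATM, 5 and 4 in ATMIN knock-out than in wtATMIN, and 5 and 3 in wtATMIN than in wtATM. Of all genes 74.2%, 65.4% and 76% were called in these comparisons, so that 9, 9 and 8 partners called are near the background. Meis1, a partner of posterior Hox proteins, was higher in both knock-out lines, by 0.94 ± 0.07 and 1.30 ± 0.07. Pbx4 was lower in both, with log2 differences of -1.61 ± 0.19 and -1.64 ± 0.18, and Meis3 had medians of 6.58, 0, 13 and 2.27 CPM in wtATM, ATM knock-out, wtATMIN, then ATMIN knock-out. In both pairs Meis1 was higher and Meis3 lower in the knock-out line.

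Of 28 regulators of Hox transcription (23 tested), 13 were higher and 6 lower in ATM knock-out, and 6 higher and 14 lower in ATMIN knock-out, than in their wild-type line. Of all genes 37.2% were higher and 37% lower in the first comparison, and 31.5% and 34% in the second. The Polycomb genes Ezh2, Suz12 and Phc1 were higher in ATM knock-out, by 0.78 ± 0.04, 0.84 ± 0.04 and 0.96 ± 0.05, and the trithorax cofactor Men1 by 0.98 ± 0.04. Ezh2 was lower in ATMIN knock-out (-0.40 ± 0.04). Cyp26b1, which degrades retinoic acid, an inducer of head-end Hox genes, was lower in both knock-out lines, with log2 differences of -2.13 ± 0.09 and -1.89 ± 0.09. Rarg, a retinoic acid receptor, differed by -1.38 ± 0.04 in ATM knock-out and by 0.76 ± 0.04 in ATMIN knock-out. Gdf11, a signal that starts tail-end Hox transcription, was lower in ATMIN knock-out (-0.73 ± 0.05). Cdx2, which activates trunk and tail Hox genes, had 1.07, 1.79 and 4.04 CPM in wtATMIN and no library above 0.0651 CPM in the other lines.

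Transcription factors that mark body regions were read next. Of 52 (42 tested), 20 were higher and 11 lower in ATM knock-out than in wtATM, beside 37.2% and 37% of all genes, so that the 31 called are near the 74.2% of all genes called. In ATMIN knock-out 7 were higher and 30 lower than in wtATMIN, beside 31.5% and 34%, and in wtATMIN 26 were higher and 12 lower than in wtATM, beside 38.2% and 37.7%. The medians were 0.51, -1.99 and 1.11, beside 0.01, -0.01 and 0.00 for all genes. Tbx5, which specifies the forelimb and heart, had 0, 0.0616 and 0.454 CPM in wtATM and 22.5, 28.1 and 35.2 in ATM knock-out (7.81 ± 0.14), and 0.532 to 13.1 and 2.24 to 5.67 CPM in wtATMIN and ATMIN knock-out. Shox2, a proximal limb gene, was higher in ATM knock-out by 2.64 ± 0.06, and Foxf1, a gene of splanchnic mesoderm, was lower (log2 difference -5.51 ± 0.08). Tbx20, a cardiac factor, had medians of 0.23, 39.9, 20.7 and 0.183 CPM in wtATM, ATM knock-out, wtATMIN, then ATMIN knock-out, the same order of lines as Hoxd13. Zic1, a dorsal neural and somite gene, had 18.7, 46.1 and 87.1 CPM in wtATMIN and at most 0.379 in any library of the other lines. Pax9 and Msx1 were lower in ATMIN knock-out than in wtATMIN, with log2 differences of -4.41 ± 0.10 and -5.63 ± 0.28. Pax3, a somite and neural crest gene, was lower in wtATMIN than in wtATM (log2 difference -4.11 ± 0.11).

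Noncoding genes inside the clusters followed the genes beside them in several cases. Of 17 listed (9 tested), 4 were higher and 3 lower in ATM knock-out, 1 and 4 in ATMIN knock-out, and 4 and 3 in wtATMIN against wtATM. These are 7, 5 and 7 of the 9, beside 74.2%, 65.4% and 76% of all genes called. Hotair, an RNA of the tail end of cluster c, had 0.799, 1.45 and 2.15 CPM in ATM knock-out and at most 0.114 in any library of the other lines, and Hoxc10 was highest in the same line. Hoxa11os, antisense to Hoxa11, had medians of 0, 0, 3.31 and 1.03 CPM in wtATM, ATM knock-out, wtATMIN, then ATMIN knock-out, beside 0, 0, 4.97 and 1.17 for Hoxa11. Hoxd3os1, which overlaps Hoxd3 and Hoxd8 on the other strand, had medians of 1.4, 0.716, 0.0267 and 0 CPM. From wtATM to ATM knock-out its median was lower, as was that of Hoxd8 (21.7 and 15.9 CPM), while that of Hoxd3 was higher (1.38 and 2.77 CPM). Hoxaas2, antisense within the span of Hoxa3, was lower in ATMIN knock-out (log2 difference -2.69 ± 0.16). The strand setting of the counting is not given in the sources used here, and reads of a Hox gene and its antisense partner then cannot be told apart. Of 27 protein-coding neighbours outside the clusters (24 tested), 6 were higher and 11 lower in ATM knock-out, 8 and 14 in ATMIN knock-out and 5 and 15 in wtATMIN against wtATM, beside the same 74.2%, 65.4% and 76% of all genes called in either direction. The 6 with the smallest p in each knock-out comparison differed by at most 0.77 (Copz1, beside cluster c) on the log2 scale.

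APH was compared with DMSO within each line at 4 h. Hox genes fell in wtATMIN and ATMIN knock-out, and few changed in the other pair. The summed Hox level went from 367 and 396 CPM in the 2 DMSO replicates of wtATMIN to 280 and 290 with APH, and from 373 and 377 to 254 and 257 CPM in ATMIN knock-out. It was 214 and 212 against 211 and 214 CPM in wtATM, and 306 and 322 against 292 and 284 CPM in ATM knock-out. In wtATMIN 15 of 34 members were lower and 0 higher by edgeR, beside 15% of all genes in either direction and 7.75% lower. In ATMIN knock-out 16 were lower and 0 higher, beside 20.4% of all genes, 10.9% lower and 9.48% higher. Unadjusted p below 0.05 gave 19 lower and 1 higher member in wtATMIN and 19 and 0 in ATMIN knock-out, and DESeq2 called 12 and 15 lower and 0 higher in both. The medians of tested members were -0.48 and -0.55, beside -0.01 and -0.02 for all genes. The count in wtATMIN was 9 without DMSO replicate 2 or without APH replicate 1, and that in ATMIN knock-out was 10 without DMSO replicate 1 and 9 without DMSO replicate 2.

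Of the genes lower at 4 h, 12 were shared by these 2 lines, which is 12 of 15 in wtATMIN and 12 of 16 in ATMIN knock-out. The share of all genes lower in both lines was not computed, so this overlap cannot be set apart from that of other genes. Hoxa7 fell in wtATMIN from 24.8 and 28.8 CPM to 14.8 and 14.1 (log2 change -0.89 ± 0.11, adjusted p = 1.55e-07 by edgeR) and in ATMIN knock-out from 38.3 and 36 to 16.7 and 19.8 (-1.04 ± 0.10, adjusted p = 1.01e-09). Hoxc8 fell from 18.9 and 21 to 10.6 and 13.9 CPM in wtATMIN (-0.70 ± 0.12) and from 30.9 and 33.9 to 24.1 and 23.7 in ATMIN knock-out (-0.44 ± 0.11). The APH and DMSO replicates did not overlap for either gene in either line. In wtATMIN the other calls with the smallest p were Hoxb3 (-0.79 ± 0.14), Hoxb6 (-0.52 ± 0.10), Hoxa5 (-0.69 ± 0.13), Hoxd13 (-0.84 ± 0.16), Hoxb8 (-0.48 ± 0.11), Hoxa4 (-1.03 ± 0.23), Hoxa9 (-0.82 ± 0.19) and Hoxc6 (-0.77 ± 0.19). In ATMIN knock-out they were Hoxc4 (-0.88 ± 0.13), Hoxb6 (-0.72 ± 0.11), Hoxc6 (-0.79 ± 0.14), Hoxb8 (-0.68 ± 0.13), Hoxa10 (-0.61 ± 0.12), Hoxb4 (-0.55 ± 0.11), Hoxb3 (-0.65 ± 0.15) and Hoxc8. Some abundant cluster b genes were not called: Hoxb7 in either line (-0.06 ± 0.13 and -0.07 ± 0.13), and Hoxb9 (-0.09 ± 0.07) and Hoxb4 (-0.30 ± 0.12) in wtATMIN.

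**Figure D4:**
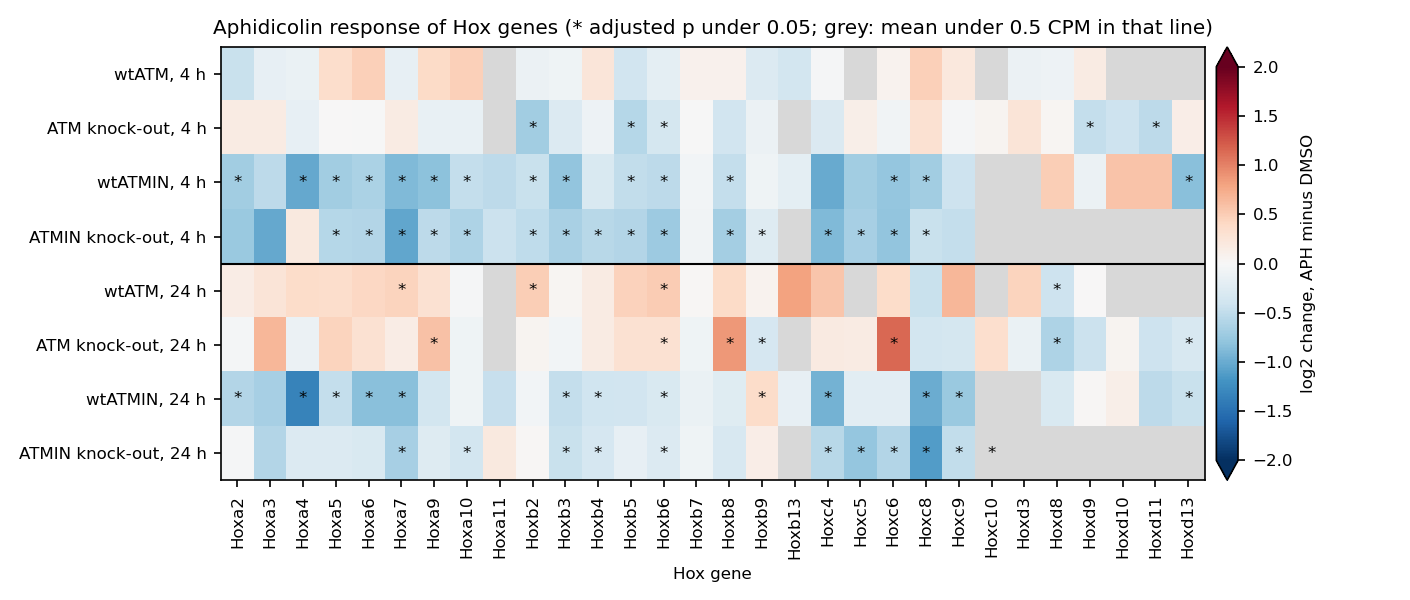
Log2 change with APH (APH minus DMSO) of 30 Hox genes with at least 1 CPM in a line, in 8 comparisons of line and time. Asterisks mark adjusted p below 0.05 and grey marks genes with a mean below 0.5 CPM in that line. The wtATMIN and ATMIN knock-out strips are mostly blue at 4 h, with 15 and 16 calls, and that of ATM knock-out carries 5, all lower.

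In wtATM 1 member passed at 4 h by edgeR and was higher, beside 5.58% of all genes, 2.82% higher and 2.76% lower. No member was lower, against 2 at unadjusted p below 0.05. DESeq2 called 0 in either direction, and the 1 call was lost without DMSO replicate 2, APH replicate 1 or APH replicate 2. In ATM knock-out 1 member was higher and 5 lower, beside 29.4% of all genes and 15.4% lower. Hoxb2 (-0.69 ± 0.17), Hoxb6 (-0.35 ± 0.12), Hoxd9 (-0.47 ± 0.17), Hoxb5 (-0.57 ± 0.21) and Hoxd11 (-0.52 ± 0.19) fell. The count of 6 calls was 0 when only the 2 compared groups were fitted, 0 without DMSO replicate 2, 1 without APH replicate 2, the shallowest library, and 2 by DESeq2.

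At 24 h the lower calls in wtATMIN and ATMIN knock-out remained in the majority. In wtATMIN 12 members were lower and 2 higher, beside 28.8% of all genes called and 15.3% lower, and in ATMIN knock-out 10 and 1, beside 30.2% and 15.8%. In wtATMIN the count was 9 without DMSO replicate 1. Medians were -0.37 and -0.26, and 0.00 for all genes in both. Of the genes lower, 7 were shared, which is 7 of 12 and 7 of 10: Hoxa7, Hoxb3, Hoxb4, Hoxb6, Hoxc4, Hoxc8 and Hoxc9. In both lines, the calls of Hoxb3, Hoxb4, Hoxb6 and Hoxc9 were not kept in every fit without 1 library. In ATMIN knock-out their changes then ran from -0.48 to -0.41, -0.41 to -0.26, -0.33 to -0.23 and -0.57 to -0.43. The share of all genes lower in both lines at 24 h was not computed either. Hoxc8 fell from 49.8 and 44.6 to 24 and 23.6 CPM in wtATMIN (-0.99 ± 0.10, adjusted p = 3.29e-09 by edgeR) and from 59.7 and 60.4 to 28.6 and 26.6 in ATMIN knock-out (-1.12 ± 0.10, adjusted p = 1.8e-10). Hoxa7 fell from 60.6 and 50.6 to 31.1 and 31.4 CPM in wtATMIN (-0.83 ± 0.09). In wtATMIN the other calls with the smallest p were Hoxa4 (-1.33 ± 0.21), Hoxa6 (-0.84 ± 0.14), Hoxc4 (-0.94 ± 0.19), Hoxb9 (0.36 ± 0.08), Hoxc9 (-0.75 ± 0.17), Hoxa5 (-0.48 ± 0.11), Hoxd13 (-0.45 ± 0.11) and Hoxb4 (-0.40 ± 0.12). In ATMIN knock-out they were Hoxa7 (-0.66 ± 0.10), Hoxc4 (-0.56 ± 0.12), Hoxc6 (-0.58 ± 0.13), Hoxc5 (-0.77 ± 0.19), Hoxa10 (-0.36 ± 0.11), Hoxb4 (-0.34 ± 0.11), Hoxb3 (-0.44 ± 0.15), Hoxc9 (-0.49 ± 0.18) and Hoxc10. The higher calls of Hoxc10 in ATMIN knock-out and Hoxc13 in wtATMIN each compared 1 read over the DMSO replicates with 15 and 10 over those with APH. Leaving out any 1 of the 4 ATMIN knock-out libraries left 5 to 7 of the 11 calls.

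In the wtATM and ATM knock-out pair the calls at 24 h went both ways. In wtATM 3 members were higher, Hoxa7 (0.44 ± 0.11), Hoxb6 (0.50 ± 0.12) and Hoxb2 (0.49 ± 0.18), and Hoxd8 was lower (-0.41 ± 0.13), beside 28.7% of all genes called. In ATM knock-out 4 were higher and 3 lower, beside 27.9%. Hoxc6 rose from 4.44 and 3.93 to 8.5 and 10.1 CPM (1.15 ± 0.18) and Hoxb8 from 6.3 and 6.18 to 10.7 and 12.2 (0.87 ± 0.14), with Hoxa9 (0.59 ± 0.12) and Hoxb6 (0.30 ± 0.11). Hoxd8 (-0.62 ± 0.15), Hoxb9 (-0.34 ± 0.08) and Hoxd13 (-0.32 ± 0.10) fell. The median of tested members was 0.36 in wtATM and 0.06 in ATM knock-out. In wtATM the count was 2 without DMSO replicate 1 or APH replicate 2, and 7 with scaling by library size alone.

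Whether the response to APH differed among the 4 lines was tested directly, by an F test of the 3 differences between lines in the same fit. It passed for 12 of 34 members at 4 h, beside 20.2% of all genes, and for 14 at 24 h, beside 24.5%. Hoxa4, Hoxa5, Hoxa6, Hoxa7, Hoxa9, Hoxb4, Hoxb8, Hoxc6 and Hoxc8 passed at both times, and 17 passed at either. Not all of these calls were kept in every fit without 1 library. Those of Hoxa4, Hoxb3, Hoxb8 and Hoxc6 at 4 h were not, nor were those of Hoxa4, Hoxb4, Hoxb5, Hoxc5 and Hoxc8 at 24 h. For Hoxa7, the log2 changes at 4 h were -0.17 ± 0.11 in wtATM, 0.17 ± 0.12 in ATM knock-out, -0.89 ± 0.11 in wtATMIN and -1.04 ± 0.10 in ATMIN knock-out. At 24 h they were 0.44 ± 0.11, 0.15 ± 0.10, -0.83 ± 0.09 and -0.66 ± 0.10. At both times the fall in Hoxa7 was called in wtATMIN and ATMIN knock-out and not in the other pair. The count at 24 h was 9 without APH replicate 1 of wtATMIN. Of the 11 TALE cofactors, 5 were lower at 4 h in wtATMIN and 4 in ATMIN knock-out, beside 7.75% and 10.9% of all genes lower. Fibroblast markers moved as well: of 16, 5 in wtATMIN and 6 in ATMIN knock-out were lower at 4 h, beside the same shares, and 11 and 10 at 24 h, beside 15.3% and 15.8%. Their part in the Hox result was not tested.

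Hox levels in DMSO also differed between 4 and 24 h, although a smaller share of Hox genes than of all genes was called. Over the mean of 4 lines, 7 members rose and 8 fell between 4 and 24 h, which is 15 of 34. Of all genes 65% were called, 32.4% higher and 32.6% lower. The median of tested members was 0.17, beside 0.00 for all genes. The labels do not say whether libraries of the 2 times were prepared together, and a part of preparation in these differences was not tested. Of the 8 that fell, all but Hoxa3 were in cluster b, and of the 7 that rose, all but Hoxb7 were outside it. Hoxb9 (-0.58 ± 0.04, adjusted p = 7.72e-15 by edgeR), Hoxb8 (-0.87 ± 0.07), Hoxb2 (-0.90 ± 0.08), Hoxb4 (-0.43 ± 0.06), Hoxb3 (-0.41 ± 0.07) and Hoxb6 (-0.27 ± 0.05) were lower, with Hoxa3 and Hoxb13. Hoxc8 (0.90 ± 0.12), Hoxc4 (0.77 ± 0.12), Hoxa7 (0.27 ± 0.05) and Hoxa10 (0.27 ± 0.07) were higher, with Hoxb7 and Hoxa5 among the rest. In wtATMIN the cluster b sum went from 248 and 264 CPM at 4 h to 153 and 143 at 24 h, the cluster a sum from 78.1 and 87 to 144 and 129, and the cluster c sum from 32.3 and 36.4 to 77.3 and 75.8. In that line Hoxb9 went from 94.7 and 96.9 to 29.3 and 29.4 CPM, while Hoxd13 went from 7.27 and 6.75 to 19.8 and 19.2. In ATM knock-out Hoxb9 went the other way, from 43.1 and 41.3 to 53.2 and 54.7 CPM. These differences between lines over time were not tested.

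The authors' deposited tables of their own comparisons were set beside these calls. They cover 10 of the comparisons, 4 for each knock-out pair and the APH response of wtATMIN at both times, and none lists a gene with 0 or 1 reads summed over either group. Between 24 and 32 of the 34 members are listed in a table. Each member that the authors' deposited tables give as changed at an adjusted p below 0.05 (10 to 19 per table) was called in the same direction by edgeR. Of the members not listed, edgeR called up to 7 per table. Hoxd11 was among them in all 4 tables of the ATM pair, and Hoxa13, Hoxd9, Hoxd10, Hoxd11 and Hoxd13 in all 4 of the ATMIN pair. In the ATM pair, the authors' deposited tables list Hoxd10 in all 4 conditions (log2 change at least 4.26) and Hoxd13 with APH for 24 h (7.09). For Hoxc9, which was listed throughout, the authors' deposited tables give log2 changes of 2.95 to 3.79 between ATM knock-out and wtATM over the 4 conditions. The deposited log2 changes are shrunken toward 0, so their sizes cannot be set against those of edgeR or the ratios of reads.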

How the data were processed

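RNA-seq libraries of 32 samples in 16 groups were used as the raw gene counts that the authors deposited (39017 genes). The mm10 genome and the tools TopHat2 2.0.13, Bowtie2 2.4.0 and DESeq2 1.6.3 are named in the submitters' processing notes. The counting tool, its strand setting and the annotation release are not given in the sources used here. The deposited log2 fold changes and adjusted p-values of 10 comparison tables, which the authors computed, were used only where named, and their 120 columns of normalised values per sample were not used. Gene symbols came from those tables (16476 genes) or GENCODE M21 (21380), and 1161 genes had none.

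The members and all gene lists were chosen with earlier results of these data known. Genes were filtered with filterByExpr, scaled with TMM and fitted once over all 32 libraries in edgeR 4.0.16 (limma 3.58.1, R 4.3.3) with the robust quasi-likelihood test. The common biological coefficient of variation was 0.0643. The 14 comparisons were 3 between lines, 8 of APH against DMSO, 1 of time and 2 of whether the APH response differed. P-values were adjusted by Benjamini-Hochberg over 18484 genes, with a call below 0.05. The SE of a log2 change is its size divided by the square root of the F statistic. It understates the error of large changes in genes with few reads in a line. For genes with no read in a group, reads summed over the 8 libraries of a line, divided by their summed depth, were compared instead, with an exact 95% counting interval or a limit of 3 counts. CPM used TMM-scaled library sizes, and RPKM used the deposited gene lengths. Totals of 9321329 to 21020662 counts set the precision.

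Every member is counted, but 1 Hox gene and some genes of the other lists are not reported singly here, and that member is not drawn. By the naming rule, members with at least 1 CPM are given with their levels, the 5 largest called differences between lines in each direction with SE, and up to 10 calls per APH comparison by smallest p. Of each other list, up to 6 members with the smallest p per line comparison could be named. Of 252 genes in the lists, 251 were matched. Scripts were tested on simulated data. Alternatives were RLE size factors, library size alone, no filter, DESeq2 1.42.0, a replicate block, the compared groups alone, single conditions, and leaving out each library. A spread estimated without the ATM knock-out libraries with APH for 4 h was added after the data were seen.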

Additional observations from a re-analysis of the deposited data

Results flagged for a closer look

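The response to APH differed among the 4 lines for 12 Hox genes at 4 h and 14 at 24 h, by the F test of the differences between lines in edgeR with Benjamini-Hochberg adjustment. Of all genes tested, 20.2% and 24.5% differed. At 4 h, adjusted p was 7.94e-07 for Hoxa7, 0.000707 for Hoxa10, 0.000772 for Hoxa5, 0.00178 for Hoxd13, 0.00358 for Hoxa6 and 0.0036 for Hoxa9. It was 0.00791 for Hoxb4, 0.0102 for Hoxc8, 0.0159 for Hoxb8, 0.0312 for Hoxc6, 0.0433 for Hoxb3 and 0.047 for Hoxa4. Hoxd13 had 6 reads in all of wtATM and 6 in ATMIN knock-out, so that its values in those lines rest on few reads.

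At 24 h, adjusted p was 4.79e-09 for Hoxa7, 2e-06 for Hoxc6, 2.05e-05 for Hoxb8, 8.19e-05 for Hoxb6, 0.000105 for Hoxb9, 0.000194 for Hoxa6 and 0.000426 for Hoxa9. It was 0.000526 for Hoxa5, 0.000683 for Hoxc4, 0.00377 for Hoxa4, 0.0226 for Hoxb4, 0.0318 for Hoxb5, 0.038 for Hoxc8 and 0.0467 for Hoxc5. The calls of Hoxa4, Hoxb4, Hoxb5, Hoxc8 and Hoxc5 were not kept in every fit without 1 library. Hoxb9 went lower in ATM knock-out (log2 change -0.34 ± 0.08) and higher in wtATMIN (0.36 ± 0.08). Hoxb6 was higher in wtATM (0.50 ± 0.12) and ATM knock-out (0.30 ± 0.11) and lower in wtATMIN (-0.31 ± 0.10) and ATMIN knock-out (-0.28 ± 0.10). Hoxc6 was higher in ATM knock-out (1.15 ± 0.18) and lower in ATMIN knock-out (-0.58 ± 0.13).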

How the results depend on the processing

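Counts of called Hox genes between lines stayed within 1.5 times under every alternative run: 26 to 28 for the ATM pair, 24 to 25 for the ATMIN pair and 28 to 31 for the wild-type lines without 1 library. For APH at 4 h in wtATM (1 call), the count was 0 by DESeq2 and 3 with the spread estimated without the ATM knock-out libraries with APH for 4 h, and for ATM knock-out (6) it was 0 with the compared groups alone and 2 by DESeq2. With library size alone, it was 7 at 24 h in wtATM (4) and 7 in ATMIN knock-out (11). Without 1 library, counts at 4 h were 0 to 1 in wtATM, 0 to 4 in ATM knock-out, 9 to 14 in wtATMIN (15) and 9 to 12 in ATMIN knock-out (16). At 24 h they were 2 to 5 in wtATM, 5 to 6 in ATM knock-out (7), 9 to 15 in wtATMIN (14) and 5 to 7 in ATMIN knock-out. For time they were 13 to 16 (15), and for responses that differed 9 to 12 at 4 h (12) and 9 to 14 at 24 h (14). The ranges without 1 library come from fits with fewer samples, and a lone sample is assumed to vary like the other groups. For the other settings the cause was not tested.

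With a replicate block, the counts were 27, 25 and 29 between lines, 1, 4, 14 and 16 for APH at 4 h, 3, 6, 14 and 10 at 24 h (wtATM, ATM knock-out, wtATMIN, then ATMIN knock-out), 14 for time, and 9 and 13 for responses that differed. Deviations of same-numbered libraries correlated by -0.16 to 0.14, which gives no sign of a strong effect shared by same-numbered samples. Values near 0 cannot exclude pairing, and libraries at 4 h and 24 h were not compared in this way.

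Mean differences between lines reversed in single conditions for Hoxb8 in the ATM pair (0.28 at 24 h in DMSO, 0.77 at 24 h with APH, and 0.13 without the groups with APH for 4 h). In the ATMIN pair they did for Hoxa4 (0.17, APH 4 h), Hoxb13 (0.37, DMSO 4 h) and Hoxc9 (-0.10, DMSO 24 h). Between the wild-type lines they did for Hoxa2 (0.25, DMSO 24 h) and, with APH for 4 h, for Hoxa6 (-0.33), Hoxa7 (-0.48) and Hoxc4 (-0.18). Of 1326 single-gene values under other scalings, filters, tools, blocks or samples, 62 lost their call and 0 reversed, and of 2248 without 1 library 193 lost it and 0 reversed. Depth limits Hoxa11, Hoxa13, Hoxc10, Hoxc13 and every cluster d gene, since at least 1 line had between 0 and 22 reads of each in all. Beside the cluster d genes of ATMIN knock-out, these include Hoxa11 (0 reads), Hoxc10 (5), Hoxd11 (2) and Hoxd13 (6) in wtATM. In wtATMIN, Hoxd3 had 2 reads.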

Other observations

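Hoxc11, a gene of lumbar and hindlimb level, is not among the genes named in the deposited comparison tables and stands outside the 34 genes described. In the count table it had 0 reads in wtATM, 880 in ATM knock-out, 3 in wtATMIN and 9 in ATMIN knock-out. Its level in ATM knock-out was 5.35, 7.7 and 9.98 CPM (lowest, median and highest of 8 libraries), beside 5.34, 8.03 and 12.7 CPM for its neighbour Hoxc10. No library of the other lines exceeded 0.295 CPM.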
